A study of Homo sapiens with 6 samples.

Results

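The genes described here are the long noncoding RNA genes (lncRNAs) and pseudogenes of 2 chromosome segments, one on the long arm of chromosome 5 and the other on the long arm of chromosome 12. They were measured by RNA sequencing in K562 cells with wild-type RUNX1 (WT, 3 libraries) and K562 cells with RUNX1 R320* (3 libraries). A member is a row of the authors' RPKM table (reads per kilobase, scaled for depth) with the type lncRNA or a type containing pseudogene and a name without -AS. Its start, as that table gives it, had to lie between positions 94150000 and 181330000 of chromosome 5 (the 5q segment) or between 42310000 and 133220000 of chromosome 12 (the 12q segment), on GRCh38. This gave 1814 members of 60131 rows, 784 in 5q and 1030 in 12q. Levels are given for the 456 members with at least 0.1 RPKM in at least 3 of the 6 libraries, 178 in 5q and 278 in 12q. Of the other members, 1029 were listed at 0 in every library. The segments were chosen by the fold changes of their genes between R320* and WT in these same libraries, which were mostly below 0. Fold changes between the genotypes are therefore given as a description, and no p is given for a member.

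K562 is an established human leukaemia line that resembles early red cell and platelet precursors, and RUNX1 is a DNA-binding regulator of blood cell genes. R320* is a premature stop toward the C-terminal end of the RUNX1 protein. Both genotypes were grown in the same medium without a further treatment, and the labels do not say how the R320* change was made, whether the R320* cells are 1 clone or whether separate cultures were used as replicates. The spread between libraries may thus be technical. An lncRNA is a transcript without a long reading frame, and some lncRNAs act on chromatin, on the stability of other RNAs or as hosts of small RNAs. Most pseudogenes are copies of a coding gene that have lost the reading frame, though the few unitary ones are not copies. Processed pseudogenes arose from a spliced transcript, and unprocessed ones from a duplication of the gene. Reads from a close copy can be assigned to the wrong member of a family. Many lncRNAs are known only by the name of the genomic clone that holds them, such as AC079949.7.

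The normalized count table, a second table of the series, was divided by the smallest value above 0 in each library. Its columns then summed to between 29058471 and 31306435. These sums are reads only if that smallest value stands for 1 read, which was not shown. Genes that mark K562, among them GATA1, TAL1 and the fetal globins, were present, with 8 of 8 at 1 RPKM or more in every library. Of 12 markers of other cell types, 7 stayed below 1 RPKM in every library, CDH5 was listed at 0 throughout, and the T cell gene CD3D reached 44.1 and the fibroblast gene COL1A2 reached 24.1 RPKM. RUNX1 stood at 23.5, 24.0 and 20.7 RPKM in WT and at 54.5, 50.8 and 52.2 in R320*. Since a stop codon does not have to reduce the RNA, these levels are no check of the labels. In such bulk libraries, fewer cells that express a gene and less RNA per cell cannot be told apart.

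The start regions of 6 members are printed because they belong to lncRNAs from across the range of responses, from listed at 0 RPKM in R320* to overlapping with WT. They were chosen after their values were seen. RefSeq promoters (GRCh38.p14) matched 45 of the 456 members with levels, and 30 of these began within 300 bases of the table's start. Each region runs from 250 bases before the RefSeq start to 50 after it, 5′ to 3′ along the gene. Capitals mark TGTGGT, a core RUNX motif, or its reverse complement. They also mark the motif of GATA factors, spelled AGATAA, again on either strand.
LINC02393, chr12:127881367-127881666, plus strand: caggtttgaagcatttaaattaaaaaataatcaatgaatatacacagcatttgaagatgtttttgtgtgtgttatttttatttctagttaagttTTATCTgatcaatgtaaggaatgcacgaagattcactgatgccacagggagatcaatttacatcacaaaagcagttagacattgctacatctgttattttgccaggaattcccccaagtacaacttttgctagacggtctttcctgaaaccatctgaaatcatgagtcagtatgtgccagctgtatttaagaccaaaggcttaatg
LINC01234, chr12:113773634-113773933, minus strand: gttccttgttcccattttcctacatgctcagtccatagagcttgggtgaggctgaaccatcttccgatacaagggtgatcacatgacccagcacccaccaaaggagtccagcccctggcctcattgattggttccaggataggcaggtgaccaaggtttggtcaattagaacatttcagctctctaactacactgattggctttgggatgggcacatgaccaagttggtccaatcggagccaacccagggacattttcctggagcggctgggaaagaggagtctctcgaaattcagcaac
LINC02404, chr12:91876878-91877177, plus strand: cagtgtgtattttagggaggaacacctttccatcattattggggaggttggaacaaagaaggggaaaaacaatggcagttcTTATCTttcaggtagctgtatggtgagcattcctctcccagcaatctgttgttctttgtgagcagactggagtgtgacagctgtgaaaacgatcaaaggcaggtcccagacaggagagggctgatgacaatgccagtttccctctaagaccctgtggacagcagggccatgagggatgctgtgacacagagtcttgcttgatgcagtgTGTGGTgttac
HEIH, chr5:180831569-180831868, minus strand: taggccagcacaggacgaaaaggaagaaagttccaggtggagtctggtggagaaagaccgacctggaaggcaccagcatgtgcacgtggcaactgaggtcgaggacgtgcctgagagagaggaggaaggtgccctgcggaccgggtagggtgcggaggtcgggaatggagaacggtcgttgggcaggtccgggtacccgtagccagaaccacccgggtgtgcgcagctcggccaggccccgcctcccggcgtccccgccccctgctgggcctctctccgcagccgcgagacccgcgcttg
SNHG4, chr5:139273851-139274150, plus strand: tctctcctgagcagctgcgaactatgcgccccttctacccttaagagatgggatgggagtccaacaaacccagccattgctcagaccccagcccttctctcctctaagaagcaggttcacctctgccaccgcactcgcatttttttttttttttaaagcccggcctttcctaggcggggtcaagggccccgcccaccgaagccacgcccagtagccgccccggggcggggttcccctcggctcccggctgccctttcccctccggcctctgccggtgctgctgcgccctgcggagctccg
NRAV, chr12:120495897-120496196, minus strand: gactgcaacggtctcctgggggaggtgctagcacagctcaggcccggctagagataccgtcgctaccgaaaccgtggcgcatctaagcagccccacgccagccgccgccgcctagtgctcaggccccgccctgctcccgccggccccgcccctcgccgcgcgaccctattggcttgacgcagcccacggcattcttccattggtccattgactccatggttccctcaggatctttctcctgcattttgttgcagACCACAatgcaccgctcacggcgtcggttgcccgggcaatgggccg

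LINC02393 was listed at 0 in all R320* libraries, LINC01234, LINC02404, HEIH and SNHG4 were lower to differing degrees, and NRAV overlapped between the genotypes. Among these regions, LINC02393 held 1 GATA match, LINC02404 held 1 match of each motif and NRAV held 1 RUNX match. No match was found in the windows of LINC01234, HEIH or SNHG4. Over all 35116 promoters of the same 300 bases, 13.1% held the RUNX motif and 10.3% the GATA motif, and the 2 motifs overlapped in 8 of them. Among the 45 matched members the shares were 11.1% and 13.3%, with no overlapping pair. Of the 30 whose RefSeq start lay within 300 bases of the table's start, the 10 called lower held the RUNX motif in 1 and the GATA motif in 4 windows, with a median GC content of 48.2%. The 20 not called held each motif in 1 window and had a median GC content of 62.5%. Over all promoters it was 58.7%. With so few windows, nothing is read from these counts. For LINC02240, described further on, the RefSeq start lay 684280 bases from the table's start, so its window is not counted among the 30.

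The RNA of the members made up a small share of each library, and that share was lower in R320*. Summed over all members, the RPKM values came to 2274, 2347 and 2410 in WT and to 1754, 1715 and 1727 in R320*, which was 0.289 to 0.309% of the column in WT and 0.229 to 0.239% in R320*. The 2 genotypes did not overlap. In the 5q segment the sum went from 1038, 1076 and 1057 in WT to 820, 816 and 849 in R320*, and in the 12q segment from 1237, 1270 and 1353 to 934, 898 and 879. The number of members at 0.1 RPKM or more was 402 to 410 per WT library and 364 to 377 per R320* library.

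Detection in WT alone does not use the R320* values, but the WT libraries were part of the comparison that chose the segments. It is therefore not independent of that choice, and the shares are given as a description. In WT the share of members detected was close to that of the same gene types elsewhere on their chromosomes. At least 0.1 RPKM in 2 of 3 WT libraries was reached by 24.9% of the 1814 members and by 23.6% of the 1340 lncRNAs and pseudogenes on the rest of chromosomes 5 and 12. In R320* the corresponding shares were 21.8% and 23.7%. By type, levels were found for 35.1% of 12q lncRNAs, 31.6% of 5q lncRNAs, 13.1% of processed pseudogenes in 12q and 9.22% in 5q. None of the 30 ribosomal RNA pseudogenes of the segments had levels. Of the 456 members with levels, 18 passed through the WT libraries alone and 4 through the R320* libraries alone, against 6 and 5 of 337 on the rest of the chromosomes.

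Within the segments the noncoding genes were lower by a median amount close to that of their coding neighbours, but with a wider spread. The median log2 fold change (R320* minus WT on the log2(RPKM + 0.1) scale) was -0.28 over the 178 members of 5q and -0.42 over the 278 of 12q, against 0.02 for the same types on the rest of the 2 chromosomes and 0.00 over all 22642 genes tested. On the scale of RPKM + 0.1, these medians correspond to 0.824 and 0.750 of WT. They are not ratios of levels, since the added 0.1 shrinks the changes of low genes. For protein-coding genes the medians were -0.33 in 5q (391 genes) and -0.52 in 12q (549 genes). These are less affected, with median means of 12.9 and 13.3 RPKM against 0.785 for the members. At a mean of at least 1 RPKM the medians were -0.34 and -0.52 for members and -0.34 and -0.54 for coding genes. The standard deviation of the fold changes was 1.20 among the members, 0.94 among the same types on the rest of the chromosomes, and 0.64 and 0.62 among the coding genes of the segments. Leaving out the 20 members listed at 0 in a whole genotype, the medians were -0.25 in 5q and -0.41 in 12q. Since a member could pass the filter through its higher genotype, these figures describe the set and are no support for its direction.

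By class, 12q lncRNAs had the lowest median at -0.51 (n = 217), followed by 5q pseudogenes at -0.42 (n = 39), 12q pseudogenes at -0.25 (n = 61) and 5q lncRNAs at -0.24 (n = 139). On the rest of the chromosomes the medians were -0.04 for lncRNAs (n = 233) and 0.23 for pseudogenes (n = 104). Among members with a mean of at least 1 RPKM, where the spread between libraries is smaller, the order was 12q lncRNAs at -0.63, 5q lncRNAs at -0.34, 5q pseudogenes at -0.23 and 12q pseudogenes at -0.19. Set against the WT mean, the R320* libraries taken each alone gave medians over all members of -0.38, -0.41 and -0.35. The differences between the classes were not tested.

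Sizes of change differed widely from member to member. At a mean of 1 RPKM or more, 14 of 115 members of 12q had a log2 fold change below -2 and 16 lay between -2 and -1, while 34 lay between -0.5 and 0 and 20 were at or above 0. In 5q, 7 of 83 were below -2, 13 between -2 and -1, 28 between -0.5 and 0, and 22 at or above 0. Below -2 there were 1.55% of the coding genes of 12q and 2.30% of those of 5q, against 12.2% and 8.43% of the members. On the rest of the chromosomes 2.13% of noncoding genes were below -2.

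A gene was called where limma's Benjamini-Hochberg adjusted p over all 22642 genes was below 0.05. By this rule 91 of the 456 members were called lower (20.0%) and 9 higher (1.97%), where 13.8% of all tested genes were called lower and 11.9% higher. The other 356 were not called. On the rest of chromosomes 5 and 12, 26 of 337 noncoding genes were called lower and 19 higher. In 5q there were 36 lower and 5 higher, and in 12q 55 lower and 4 higher. The 12q count of lower calls dropped to 35, 29 and 36 when the first, the second or the third WT library was left out. The 5q count of higher calls went to 3 without the second or the third WT library or the second R320* library, and to 2 without the first or the third R320* library. Because this comparison chose the segments, nothing is read from these counts.

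All 9 higher calls were lncRNAs, and so were 79 of the 91 lower calls. However, 356 of the 456 members with levels are lncRNAs, so most calls would fall on them in any case. Of the 356, 22.2% were called lower and 2.53% higher, against 13.8% and 11.9% of all tested genes. No pseudogene was called higher by limma, and none had an unadjusted p below 0.05 in that direction, while 12 of 100 were called lower (against 13.8% of all tested genes). All 3 R320* libraries lay below all 3 WT libraries for 137 members (30.04%, against 21.4% of all tested genes) and above them for 23 (5.04%, against 19.8%). For the other 296 members the genotypes overlapped. The median standard error of a fold change was 0.44 over all members and 0.13 over the 67 with a mean of 5 RPKM or more. Of those 67, 29 were called lower (43.3%) and 3 higher (4.48%), with a median of -0.40. Over all 10379 tested genes at that level, 20.4% were called lower and 20.01% higher. Of the 109 members below a mean of 0.3 RPKM, 10 were called lower and 4 higher, where 13.8% and 11.9% of all tested genes at any level were.

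Along 5q, medians per 10 Mb from the lower bound lay between -1.65 and 0.00 for members and between -0.44 and -0.13 for coding genes. The lowest, at 10 to 20 Mb, held 9 members. Along 12q the medians ran from -0.77 to -0.09 for members and from -0.70 to -0.16 for coding genes, and the bin nearest the upper bound held 4 members. Just inside the lower bound of 5q, AC025766.1 stood at 1.18, 1.47 and 1.11 RPKM in WT and at 0, 0.739 and 0 in R320*, and AC008840.1 went from 4.66 to 1.29 RPKM (means). Just outside, AC114980.1 had means of 0.490 and 0.292 and AC108102.1 of 0.407 and 0.156 RPKM. At the lower bound of 12q, AC079684.1 inside had 5.55 and 4.97 RPKM, and LINC02461, next inside, was at 0.129, 0.246 and 0.253 in WT and listed at 0 in R320*. AC006197.2, just outside, had 0.495 and 0.567, and the next noncoding gene with levels lay 8.09 Mb away.

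At the upper bound of 5q the last members were AC138035.2, with 1.62 RPKM in WT and 0.214 in R320*, and AC138035.3, with 0.708 and 0.351. The table's start is the lower edge of a fixed window, so the annotated start of AC138035.3, at 181331839, falls past the bound. The pseudogene RPL23AP45, the one gene of these types with levels beyond, was erratic within each genotype, at 22.5, 0 and 0 RPKM in WT and 5.74, 0 and 22.4 in R320*. At the upper bound of 12q AC127070.2 had 0.374 and 0.505 RPKM and AC073911.1 had 0.346 and 0.382, with overlapping libraries, and no noncoding gene with levels lay beyond.

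**Figure D1:**
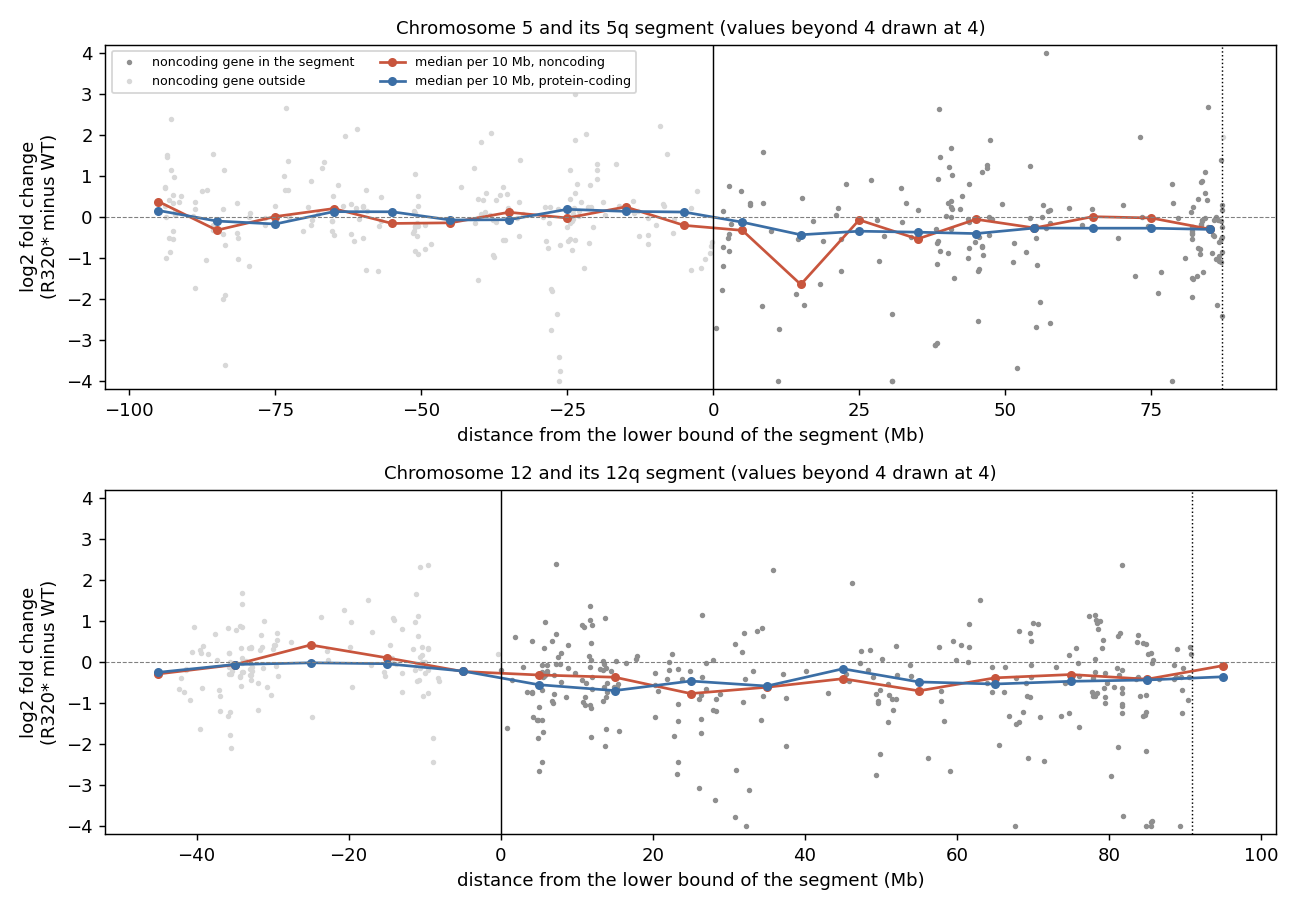
Log2 fold change (R320* minus WT, vertical axis) of noncoding genes with levels against distance in Mb from the lower bound of each segment (horizontal axis). Solid and dotted vertical lines are the lower and upper bounds, and joined points are medians per 10 Mb, in red for noncoding and blue for coding genes. Medians of both kinds lie mostly below 0 inside the bounds and around 0 to their left, and single noncoding genes scatter more widely.

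SNHG4, host of a small nucleolar RNA, was the most abundant member in 5q. It stood at 294.5, 312.8 and 292.4 RPKM in the WT libraries and at 229.5, 222.3 and 223.4 in R320*, so the genotypes were well apart. The means were 299.9 ± 11.2 and 225.1 ± 3.89 (SD, n = 3 each), with a log2 fold change of -0.41 (SE 0.04). SNHG4 (chr5:139274102, plus strand) overlaps MATR3 and SIL1, with a coding exon on the same strand. Reads from the shared part cannot be told apart. MATR3, which encodes a nuclear matrix protein and starts 350 bases away, had a log2 fold change of -0.09.

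Another 3 abundant lncRNAs of 5q, with clone names, were called lower as well. AC008443.1 stood at 77.5, 78.8 and 81.8 RPKM in WT and 62.4, 69.3 and 69.1 in R320*. It overlaps RACK1 and TRIM52, with a coding exon on the opposite strand. AC139493.2 stood at 61.7, 54.3 and 57.2 in WT and 47.2, 48.6 and 41.2 in R320*. AC138035.1 stood at 48.3, 55.3 and 55.1 in WT and 33.2, 39.6 and 39.8 in R320*. Their log2 fold changes were -0.25 (SE 0.05), -0.34 (SE 0.08) and -0.50 (SE 0.09), and for each of them the genotypes did not overlap. The call of AC008443.1 was lost without the third WT library, and that of AC139493.2 without the first or the third.

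HEIH and LINC00847, named after their values were seen, start close together on opposite strands near the distal end of 5q, at 180831605 and 180830326. HEIH, an lncRNA first described in liver cancer, stood at 17.7, 17.2 and 16.5 RPKM in WT and at 8.08, 8.25 and 7.77 in R320*. This was a difference of 2.13-fold, with a log2 fold change of -1.08 (SE 0.07). LINC00847 stood at 17.6, 17.3 and 17.3 in WT and 10.9, 10.7 and 12.5 in R320*. Both were lower in every R320* library than in any WT library, and MGAT1, their nearest coding gene, had a log2 fold change of -0.52.

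Of the 5 pseudogenes of 5q with a mean of 5 RPKM or more, 4 overlapped between the genotypes. AC106795.1, a transcribed unprocessed pseudogene, stood at 29.3, 32.2 and 31.7 RPKM in WT and 34.3, 24.7 and 28.9 in R320*. AC139491.6 had means of 9.71 ± 1.42 and 7.23 ± 1.06, and AC139795.1 of 7.24 ± 0.736 and 6.32 ± 0.890. AC126915.2 varied more between libraries of a genotype than between genotypes, at 0, 9.27 and 2.02 in WT and 5.44, 5.65 and 16.7 in R320*. AACSP1, the fifth, had all R320* libraries below all WT libraries, at 6.13, 5.83 and 6.08 in WT and 4.95, 5.01 and 5.07 in R320* (log2 fold change -0.26, SE 0.09). None of the 5 was called.

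**Figure D2:**
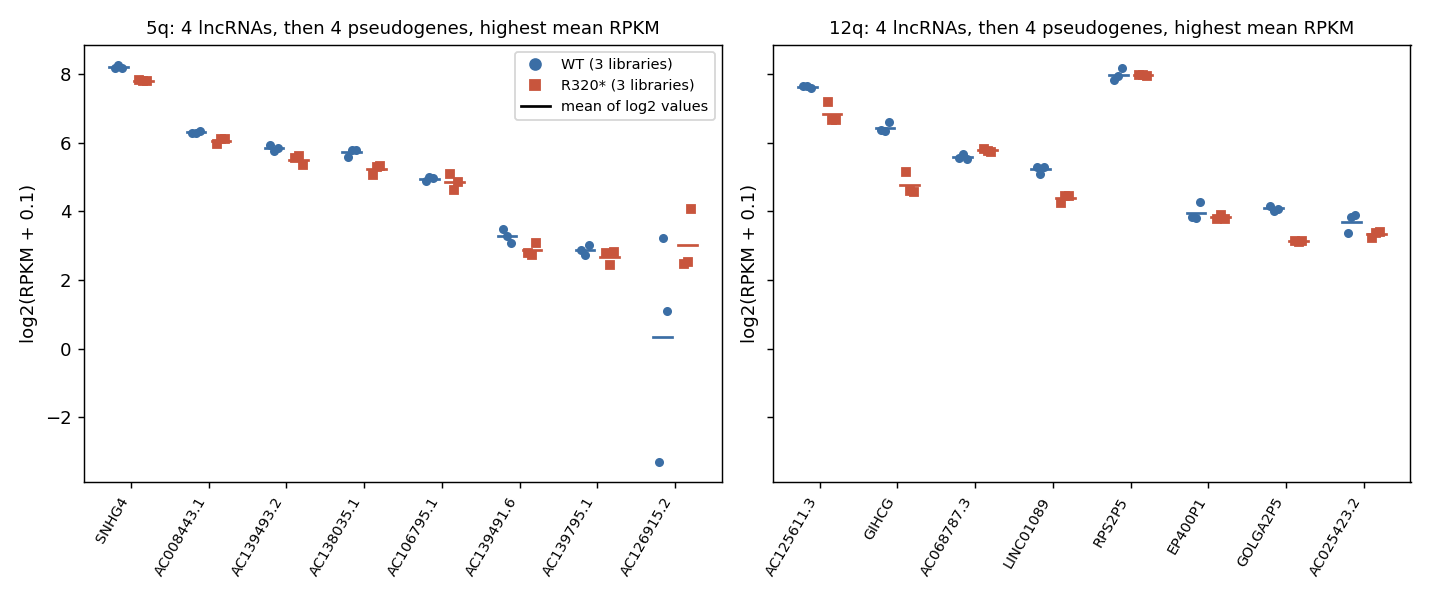
Levels, as log2(RPKM + 0.1) on the vertical axis, of the 4 lncRNAs and 4 pseudogenes with the highest mean RPKM in each segment (horizontal axis). Blue circles are the 3 WT libraries, red squares the 3 R320* libraries and bars the means of the log2 values. Of the 8 lncRNAs, 7 have all R320* points below all WT points and AC068787.3 has them above, while GOLGA2P5 is the one pseudogene whose points do not overlap.

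Of the 4 lncRNAs of 12q with the highest mean RPKM, GIHCG differed most. GIHCG, an lncRNA first described in liver tumours, stood at 83.1, 81.0 and 97.5 RPKM in WT and at 35.5, 23.9 and 23.5 in R320*. Its means of 87.2 ± 8.98 and 27.6 ± 6.81 differed 3.15-fold (log2 fold change -1.68, SE 0.17). GIHCG (chr12:57936345, minus strand) lies in an intron of ATP23 on the opposite strand, and ATP23 had a log2 fold change of -1.02. AC125611.3 stood at 203, 201 and 193 in WT and 147, 103 and 101 in R320*, and lies opposite an exon of the tubulin gene TUBA1C.

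LINC01089, studied as a growth-restraining lncRNA in breast cancer, stood at 39.0, 33.7 and 39.6 RPKM in WT and 18.8, 21.6 and 22.0 in R320* (log2 fold change -0.84, SE 0.09). It shares an exon with RHOF on the same strand and starts 274 bases from SETD1B, a histone methyltransferase gene with a log2 fold change of -0.53. LINC02404 stood at 19.3, 18.0 and 19.6 in WT and at 8.83, 11.6 and 8.35 in R320*, a difference of 1.98-fold. Its nearest coding gene, BTG1, 268922 bases away, had a log2 fold change of -0.27. LINC01234, an lncRNA studied in solid tumours, stood at 13.4, 14.1 and 14.0 RPKM in WT and at 2.39, 3.19 and 2.07 in R320*, a difference of 5.42-fold (log2 fold change -2.42, SE 0.16). All of these lncRNAs were called lower, and in none did the genotypes overlap. RBM19, the nearest coding gene to LINC01234 at 192599 bases, had a log2 fold change of -0.21.

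NRAV, known as a restrainer of antiviral genes, was level between the genotypes. It stood at 5.38, 3.58 and 5.01 RPKM in WT and at 4.001, 5.55 and 4.97 in R320*. LINC00173, studied in granulocyte development, was lower in all R320* libraries, at 6.77, 9.00 and 8.04 against 6.57, 5.54 and 4.46, but was called only when the first R320* library was left out.

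Other lncRNAs of the fixed lists overlapped between the genotypes in RPKM. Among the small RNA hosts, MIR3936HG stood at 14.1 ± 1.80 RPKM in WT and 11.4 ± 1.47 in R320*, and CARMN, host of a smooth-muscle microRNA pair, at 0.784 ± 0.253 and 0.651 ± 0.147. HOTAIR, the lncRNA of the HOXC cluster that binds chromatin repressors, was at most 0.544 RPKM in any library, with means of 0.201 ± 0.223 and 0.237 ± 0.266. TH2LCRR, from the interleukin locus around RAD50 and IL13, had means of 0.466 ± 0.267 and 1.13 ± 0.865. MIR3142HG, RMST, THRIL, the HMGA2-linked pseudogene RPSAP52 and 6 protocadherin pseudogenes did not reach the level rule. MIR143HG, MIRLET7IHG and CARINH are not names of the table. Of the 10 listed genes with levels, SNHG4, LINC01089, LINC01234 and LINC00944 were called lower, against 13.8% of all tested genes. Nothing is read from so few.

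Among the 12q pseudogenes, GOLGA2P5 differed most clearly. This copy of a Golgi matrix protein gene stood at 17.9, 16.2 and 16.6 RPKM in WT and at 8.77, 8.53 and 8.72 in R320*, a difference of 1.95-fold with a log2 fold change of -0.96 (SE 0.07). ACTR6, its nearest coding gene, had a log2 fold change of -0.82. EP400P1, a copy of a chromatin remodeller gene, overlapped, with 15.7 ± 3.004 in WT and 14.1 ± 0.672 in R320*. AC025423.2 overlaps the genes CPM and MDM2, with a coding exon on the same strand. Its means were 13.1 ± 2.46 and 10.0 ± 0.662, and its libraries overlapped between the genotypes as well.

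RPS2P5, a processed copy of the ribosomal protein gene RPS2 in an intron of TAOK3, was the most abundant pseudogene. It stood at 231, 246 and 292 RPKM in WT and at 254.1, 253.7 and 249.8 in R320*, and the genotypes overlapped. Its sequence is identical to the RPS2 coding sequence at 868 of 879 bases (98.7%), and RPS2, on chromosome 16, had means of 4293 and 3726 RPKM.

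With so few differences the level of RPS2P5 is uncertain, and its share of RPS2 reads was not tested. The same holds for the other ribosomal protein pseudogenes, of which 78 lay in the segments and 16 had levels. They were 72.5 to 99.6% identical to their 13 parents over the aligned bases. All parents were abundant, the lowest WT mean being 631 RPKM. RPL7P1, 741 of 744 bases identical to RPL7, stood at 0.339, 0.212 and 0.443 RPKM in WT and was listed at 0 in R320*, while RPL7 had means of 2583 and 2736.

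The largest differences ended at or near 0 RPKM in R320*. LINC02240 (chr5:124808981, plus strand) stood at 2.52, 2.11 and 3.62 RPKM in WT and was listed at 0 in all R320* libraries. AC113398.1, a processed pseudogene that starts nearby on the other strand at 124809233, stood at 1.87, 2.27 and 2.85 and was also listed at 0 in R320*. Their nearest coding gene, ZNF608, had a log2 fold change of -1.68. AC027309.2, a processed pseudogene inside NEURL1B, stood at 2.88, 1.34 and 4.46 in WT and at 0 in R320*. An exact 0 in such a table can be a failed estimate, so no fold is given for these genes.

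AC091987.1, in a coding desert of 5q with NUDT12 as its nearest coding gene 1683574 bases away, stood at 4.27, 4.43 and 6.89 RPKM in WT and at 0, 0.265 and 0.126 in R320*. In distal 12q, AC117500.3 stood at 2.24, 2.88 and 2.52 in WT and at 0, 0 and 0.114 in R320*. AC025257.1, opposite an exon of ATXN7L3B, stood at 8.38, 12.9 and 4.16 in WT and 0, 3.71 and 0 in R320*. It did not overlap between genotypes and was not called. With pseudocounts of 0.5 and 1, with the replicate block and without the second R320* library it was called. Among the other members listed at 0 in all R320* libraries with a WT mean above 1 were the pseudogene AC091959.2 (1.57, 0.733 and 1.46 in WT) and the lncRNAs AC026358.1 (1.09, 1.48 and 1.24) and AC090503.2 (0.952, 2.20 and 0.949).

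Some members went the other way. LINC00491, in 5q, stood at 6.39, 6.88 and 6.88 RPKM in WT and at 8.25, 8.61 and 8.62 in R320* (log2 fold change 0.33, SE 0.08). Its nearest coding gene PAM, an enzyme of peptide hormone processing, had a log2 fold change of 1.80. AC109466.1 stood at 22.3, 24.3 and 23.0 in WT and 28.1, 29.96 and 26.5 in R320*. AC008568.1 went from 3.26 ± 0.889 to 6.18 ± 1.63. These 3 were called higher and did not overlap between the genotypes.

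AC008443.6, opposite an exon of TRIM7, stood at 0.767, 0.525 and 0.522 RPKM in WT and 1.20, 1.87 and 2.21 in R320*. Its call was lost with the replicate block and without the second or the third WT or the second or the third R320* library. Among the 9 higher calls, 4 lncRNAs were listed at 0 in all WT libraries and reached at most 0.741 RPKM in R320*: AC073571.1, AC024941.2, AC011313.1 and AC004775.1. AC024941.2 starts 320 bases from KITLG, the gene of stem cell factor, on the opposite strand, and KITLG had a log2 fold change of 1.11.

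Other members with high differences did not pass the test. AC099487.1 stood at 2.64, 1.23 and 4.98 RPKM in WT and at 5.56, 8.28 and 10.1 in R320*. AC008641.1 stood at 4.44, 0 and 0 in WT and at 6.74, 5.69 and 6.78 in R320*. AC144548.1, which overlaps ANAPC7 and ARPC3 with a coding exon on the same strand, had means of 2.45 ± 0.571 and 4.19 ± 0.820. AC073611.2, opposite C12orf10 and PFDN5, had means of 0.493 ± 0.0940 and 1.06 ± 0.639. In each of these 4 the genotypes did not overlap. AC099487.1 was called without the third WT library, with the replicate block and with pseudocounts of 0.5 and 1. AC008641.1 was called without the first WT library, and AC144548.1 without the first library of either genotype.

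A stretch of distal 12q without a nearby coding gene, chosen after its values were seen, held mostly lower lncRNAs. Between LINC00943 (start 126723412) and LINC00508 (start 127983854) lay 13 lncRNAs with levels, of which 8 were called lower and 1 higher. Of all tested genes, 13.8% were called lower and 11.9% higher. As these values chose the stretch, nothing is read from the counts. AC079949.7 stood at 11.8, 14.5 and 15.4 RPKM in WT and 0.601, 0.383 and 0.495 in R320*, a difference of 28.2-fold (log2 fold change -4.57, SE 0.20). LINC00508 stood at 3.48, 3.02 and 3.16 in WT and at 0.127, 0.130 and 0.125 in R320*, a difference of 25.3-fold. AC025160.1 stood at 1.54, 1.44 and 1.83 in WT and 0.0471, 0 and 0 in R320*, and LINC02393 at 2.62, 0.834 and 3.05 in WT and at 0 in all R320* libraries. All 4 were called lower, and so were AC079949.2, with means of 6.32 ± 0.602 and 3.58 ± 0.384, and LINC02405, with 1.77 ± 0.596 and 0.667 ± 0.242.

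AC068787.3 lies between them and was the most abundant gene of the stretch. It stood at 47.2, 51.5 and 45.8 RPKM in WT and at 57.0, 54.1 and 53.7 in R320* (log2 fold change 0.19, SE 0.06). It was called higher, but the call was lost with the replicate block, with a pseudocount of 0.01 and on leaving out any library except the second WT library. LINC00507, close to LINC00508, overlapped between the genotypes, at 1.79, 2.35 and 2.15 in WT and 1.60, 2.28 and 2.34 in R320*. LINC00943 had means of 1.43 ± 0.267 and 2.003 ± 0.317, also overlapping. LINC00944 had means of 2.12 ± 0.975 and 0.746 ± 0.129, and its call as lower was lost on leaving out any library except the third WT library.

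AC079949.1 and AC079949.6 start 3 bases apart on opposite strands, at 127146532 and 127146535. The first had 22.1, 8.42 and 16.3 RPKM in WT and 8.19, 9.02 and 3.19 in R320* and overlapped. The second had 6.84, 4.49 and 5.204 in WT and 1.16, 1.19 and 1.03 in R320* and did not. Without knowing whether counting used strand, reads of such pairs cannot be told apart.

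**Figure D3:**
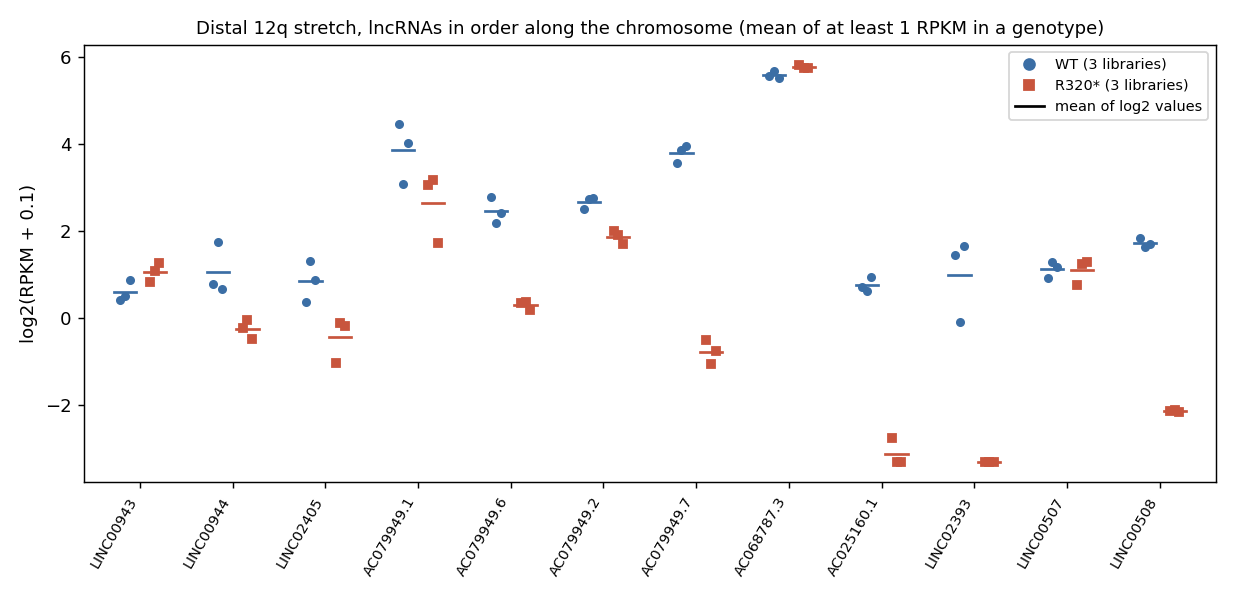
Levels, as log2(RPKM + 0.1) on the vertical axis, of the lncRNAs of the distal 12q stretch in chromosome order (horizontal axis), for those with a mean of at least 1 RPKM in a genotype. Blue circles are WT libraries, red squares R320* libraries and bars the means of the log2 values. AC079949.7, AC025160.1, LINC02393 and LINC00508 have R320* points far below WT, while AC068787.3 and LINC00507 between them are level or slightly higher.

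How closely members followed their nearest coding gene differed with the segment, the level and the measure of correlation. Across genes, Pearson's r between the log2 fold change of a member and that of the nearest coding gene was 0.23 in 5q (178 members, 115 neighbours) and 0.03 in 12q (278 members, 183 neighbours). Members share neighbours and all values share the 6 libraries, so these are descriptions. For members with a mean of 1 RPKM or more, r was 0.32 in 5q (n = 83) and -0.02 in 12q (n = 115), and at 5 RPKM or more it was 0.44 (n = 31) and -0.09 (n = 36). Spearman's rank correlation was 0.15 in 5q and 0.08 in 12q over all members. It was 0.24 and 0.10 at 1 RPKM or more, and 0.39 and 0.12 at 5 RPKM or more. Of the 198 members at 1 RPKM or more, 101 were within 0.5 of their neighbour. Member and neighbour were both below 0 for 142 of the 198.

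For the 58 members that start within 1000 bases of a coding gene on the opposite strand, the median was -0.43 for the members and -0.39 for the coding genes, with r of 0.40 in 5q (n = 22) and 0.23 in 12q (n = 36). Over both segments r was 0.27 for the 58 and -0.01 for the 33 of them with a mean of at least 1 RPKM. Spearman's rank correlation put the segments in the reverse order, at 0.15 in 5q and 0.21 in 12q. Over both segments it was 0.29 for the 58 and 0.16 for the 33. For the 167 members whose nearest coding start is over 50000 bases away, the medians were -0.40 and -0.37. In 12q, at a mean of 1 RPKM or more, the median was -0.79 for the 38 members that overlap no coding gene, -0.31 for the 36 inside introns alone and -0.63 for the 27 opposite an exon. In 5q the corresponding medians were -0.18 (n = 36), -0.24 (n = 15) and -0.49 (n = 19). These differences were not tested.

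**Figure D4:**
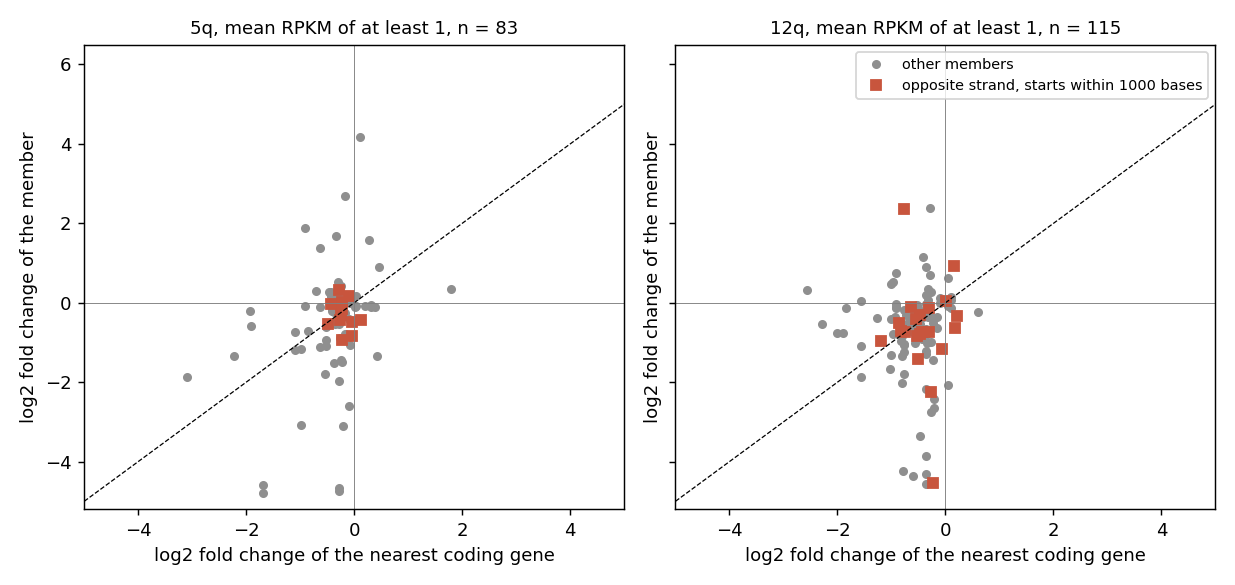
Log2 fold change of each member with a mean of at least 1 RPKM (vertical axis) against that of its nearest coding gene (horizontal axis), for 83 members of 5q and 115 of 12q. Red squares are members that start within 1000 bases of the coding gene on the opposite strand, grey circles all others, and the dashed line marks equal values. Coding genes cluster just left of 0 and members spread vertically, with r of 0.32 in 5q and -0.02 in 12q.

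The normalized count table is a second readout of the same libraries, so its values are not independent of the segments' choice. It held 57 of the 456 members by symbol, and 34 passed its filter of 10 normalized counts in 3 libraries. Of these, 17 were called lower and 1 higher, where 27.4% of the 14299 genes tested in that table were called lower and 26.4% higher. The fold changes had the same sign in both tables for 31 of 34, and no member was called in opposite directions. The medians of the 34 were -0.62 in counts and -0.53 in RPKM.

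For GIHCG and HEIH the 2 tables gave like values. GIHCG went from 957 ± 118 to 306 ± 36.1 normalized counts and HEIH from 690 ± 11.8 to 343 ± 20.6, with log2 fold changes of -1.64 and -1.01 in counts against -1.68 and -1.08 in RPKM. LINC01234 went from 392 ± 29.9 to 45.1 ± 19.9, a log2 fold change of -3.19 in counts against -2.42 in RPKM. LINC00491 went from 270 ± 23.8 to 369 ± 25.7 and was the 1 member called higher in counts. LINC00508 stood at 371, 366 and 368 normalized counts in WT and at 5.88, 5.95 and 3.81 in R320*, a log2 fold change of -5.91 against -3.87 in RPKM. LINC02393, listed at 0 RPKM in R320*, had 0, 1.98 and 0 normalized counts there.

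Others differed between the tables. LINC00507 had 6.28, 1.99 and 3.03 normalized counts in WT and 0 in all R320* libraries, too few to test, where its RPKM were level. LINC02240 had 0, 0 and 2.02 in WT and 0 in R320*, so that its RPKM of 2 to 4 in WT were not matched by reads in the count table. LINC02444 was lower in counts, from 14.9 ± 3.58 to 1.32 ± 2.29, with a log2 fold change of 0.43 in RPKM. TMEM198B, a pseudogene with a log2 fold change of -0.19 in RPKM and no call, was called lower in counts, from 400 ± 9.36 to 267 ± 43.5.

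A further 2 members of 12q, listed at 0 RPKM in every library, were present in the count table and called lower there. THRIL, an lncRNA studied in the expression of tumour necrosis factor, stood at 518, 503 and 527 normalized counts in WT and at 274, 313 and 256 in R320*. The pseudogene ADAM1A stood at 249, 328 and 284 in WT and at 191, 202 and 199 in R320*. For these members a listing at 0 RPKM did not mean a lack of reads.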

How the data were processed

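RNA of K562 cells was sequenced in 6 libraries, 3 WT and 3 R320*, grouped by their titles in the labels. The build hg38 and the tools Salmon, DESeq2, featureCounts and HISAT2 are per the submitters' processing notes. The sources used here do not tie a tool to a table or give the annotation, poly(A) selection or the use of strand. The RPKM values deposited by the authors cover 60131 genes, and their columns sum to between 721735 and 786389. The deposited normalized counts, a signal divided by the authors by 1 factor per library, are whole multiples of the smallest value in each library, within 1e-06 of a step.

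Starts in the RPKM table are the lower edges of windows of 4000 bases. GENCODE 29 (GRCh38) matched 58067 rows, and for 86.4% of them the window was centred on the gene start. Gene starts, strands, exons and overlaps come from that release, and starts of unmatched members from the window's centre. Coding neighbours are the nearest tested protein-coding genes by start.

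Genes with at least 0.1 RPKM in at least 3 libraries (22642) were fitted as log2(RPKM + 0.1) with limma 3.58.1 in R 4.3.3, with an intensity trend, no block and Benjamini-Hochberg adjustment. A fold change on this scale understates the change of low genes. The count table was fitted as log2(normalized count + 1) after a filter of 10 in 3 libraries. Since RPKM gives no depth per value, no counting intervals were made. In simulated RPKM values over 22642 genes, limma recovered 8, 19, 34 and 43 of 50 genes changed 1.25-, 1.5-, 2- and 4-fold, with 5 false calls. The changed genes were drawn from those with a mean log2(RPKM + 0.1) above 0. The median member with levels had a mean of 0.785 RPKM, below that bound, so recovery at the level of most members was not simulated. Pseudogenes were aligned to parent coding sequences with Biopython 1.88. Python 3.11.15, pandas 2.3.3, NumPy 2.4.6 and matplotlib 3.10.9 were used.

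The members, the gene lists and the tests were chosen with earlier results of these data known. Named genes were, per segment and class, the 4 highest by mean RPKM, per segment the 3 largest differences in each direction among members with a mean of at least 1 RPKM in the higher genotype and no overlap, the fixed lists, and the members nearest the bounds. Others are described as chosen after their values were seen, and so are the count-table examples, AACSP1, AC079949.2, LINC02405, the other lncRNAs listed at 0, LINC02404, NRAV and the remaining higher calls. Alternatives were other pseudocounts, filters, scalings and variance models, the replicate block, each library left out, the count table and other member sets.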

Additional observations from a re-analysis of the deposited data

How the results depend on the processing

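The medians stayed below 0 in both segments under every alternative run. For 5q and 12q in turn, against -0.28 and -0.42, they were -0.34 and -0.53 with a pseudocount of 0.01, -0.18 and -0.27 with 0.5, and -0.13 and -0.18 with 1. They were -0.34 and -0.54 with a filter of 0.5 RPKM in 3 libraries, and -0.16 and -0.33 with any gene above 0. A filter on the mean gave -0.44 in 12q and 2 higher calls there, as did the filter of 0.5. Columns scaled to equal sums gave -0.23 and -0.38, quantile normalization -0.23 and -0.37, and subtracting library medians -0.19 and -0.33. The count table gave -0.52 and -0.67, with 6 lower and 1 higher call in 5q and 13 and 0 in 12q (limma, 24 tested, 1 higher at an unadjusted p below 0.05), where ADAM1A and THRIL, without RPKM levels, were among the tested and the lower. Gene symbols alone gave -0.28 in 12q, with 10 lower and 1 higher call in 5q and 19 and 0 in 12q (limma, 76 tested, 1 higher at an unadjusted p below 0.05). Both sets hold fewer members. No other tool was run. Keeping -AS names gave -0.34 and -0.45, and leaving out ribosomal protein pseudogenes -0.44 in 12q. Added after seeing the data, leaving out members over coding exons gave -0.39 and 2 higher calls in 12q, and a mean of at least 1 RPKM gave -0.34 and -0.52, with 35 lower and 1 higher call in 12q. Without an intensity trend 5q had 3 higher calls. The cause of these shifts was not tested.

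Leaving out each library in turn, the medians ran from -0.35 to -0.27 in 5q and from -0.45 to -0.42 in 12q. Lower calls ran from 26 to 36 in 5q and from 29 to 46 in 12q, and higher calls from 2 to 5 in each segment. Scaling moved the split of calls over all genes from 2689 higher and 3118 lower to 3325 and 2497 with equal sums and 3657 and 2487 with library medians subtracted, and shifted the median of all genes by at most 0.085. For single named genes, 321 of 361 alternative values kept direction and call, 20 lost a call and 13 gained one. With each library left out, the sign turned for AC106795.1 (range -0.22 to 0.021), EP400P1 (-0.22 to 0.010), RPS2P5 (-0.085 to 0.083), CARMN (-0.39 to 0.0029) and HOTAIR (-0.45 to 0.73, and -0.34 without the third WT library), and in the count table for TH2LCRR (-0.49). None of these was called.

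Replicate numbers in the labels did not pair the libraries. Deviations of same-numbered libraries correlated at -0.02, -0.01 and -0.08 over 15306 genes. With the number as a block, 5q had 32 lower and 4 higher calls and 12q 43 and 2, with unchanged medians, and over all genes 2147 were called higher and 2532 lower. edgeR and DESeq2 on recovered reads were planned and not run. The spread between libraries limits what can be called at low levels, with a median standard error of 0.60 below a mean of 0.3 RPKM and 0.13 at 5 or more.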
